A study of Homo sapiens with 12 samples.

Results

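Estrogen receptors and the cofactors that nuclear receptors recruit were followed in EA.hy926, an endothelial hybrid line of human umbilical vein origin that, per the labels, does not express estrogen receptor alpha. The members were the genes ESR1, ESR2, GPER, ESRRA, NCOA1, NCOA2, NCOA3, NCOR1 and NRIP1, taken as every row of the deposited intensity table that carried one of these symbols or an older symbol of the same gene. All 9 members were on the arrays, with 15 probes among the 47321 used. Of these members, 7 were among the 15249 genes tested across groups, and 2 (ESR1 and NCOA2) did not pass the filter, which asked for a detection p-value under 0.05 on at least 3 arrays. The filter can be passed through the arrays of a single group, so counts over the 7 tested members do not describe all 9.

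The study set up 4 groups of 3 arrays, which it calls biological replicates. ERa cells treated with estradiol carried the plasmid pCMV3-ERalpha and received 10 nM 17-beta-estradiol (E2) for 16 h. ERa vehicle cells carried the same plasmid and received ethanol. Ctrl E2 and Ctrl vehicle cells carried the backbone pCDNA 3.1 and received E2 or ethanol in the same way. All cells had been selected in 5 µg/ml puromycin for 2 to 3 weeks and kept in 2 µg/ml, and all spent 24 h in serum-free medium before treatment. Between 8 and 10 single colonies were picked, and the labels do not say whether these were pooled or whether a replicate number stands for a clone or for a culture. The p-values below therefore measure only the spread between these arrays. RNA was hybridised to Illumina BeadChips, on which between 18441 and 19747 probes per array were detected.

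Estrogen receptors alpha (ESR1) and beta (ESR2) are ligand-activated transcription factors that bind DNA at estrogen response elements, while GPER is a membrane receptor that responds to estrogen through G proteins. The bound receptor recruits coactivators of the p160 family (NCOA1, NCOA2 and NCOA3), which bring in histone acetyltransferases such as CREBBP and EP300, and corepressors such as NCOR1, which bring in the deacetylase HDAC3. NRIP1, also called RIP140, binds the receptor with hormone and mainly represses transcription. In endothelium, estrogen receptors are best known for raising nitric oxide production.

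The palindromic estrogen response element has the letters GGTCANNNTGACC, and GGTCA alone is 1 arm of it. The windows of 250 bases before to 50 bases after each annotated start, taken from RefSeq on GRCh38.p14, matched 8 of the 9 members, all but NCOA2, with 23 windows in all. On either strand, the full element was in 0 of these 23 windows, against 20 of 35116 windows of all genes (0.057%). The arm was in 5 of them (21.7%), against 37.4% of all windows, and these 5 belonged to ESR1, ESR2 and NRIP1. Some windows of ESR2 overlap and hold the same arms. The arm nearest upstream of a start of each of these genes is given here with its neighbouring bases, in the gene's direction, with the arm in capitals. They are shown because the receptor's own binding letters lie near the starts of 2 receptor genes and of a corepressor. A match describes letters only. In what follows ESR2, detected on 4 of 12 arrays, and NRIP1 were tested and not called, while ESR1 was not in the fit and so could not be called there.
ESR1, chr6:151690486-151690515, plus strand, arm starting 29 bases before a start: tcctaatttcatGGTCAtaacagcctcctg
ESR2, chr14:64294432-64294461, minus strand, arm starting 39 bases before a start: gctccctggctcGGTCAcgtgggctcaggc
NRIP1, chr21:15065153-15065182, minus strand, arm starting 170 bases before a start: gcggcttcctccTGACCgggtgacaatggg

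The single ESR1 probe was not detected on any of the 12 arrays, including the 6 from cells that carry the receptor plasmid. Its detection p-value, the share of negative control beads at least as bright, lay between 0.103 and 0.681. Levels are given as normalized log2 levels, the background-corrected, quantile-normalized intensity on a log2 scale. They were 4.54, 4.45 and 4.36 in ERa E2 arrays and 4.70, 4.43 and 4.52 in ERa vehicle arrays, against 4.65, 4.67 and 4.44 in Ctrl E2 arrays and 4.57, 4.47 and 4.47 in Ctrl vehicle arrays. The highest and the lowest array were both ERa arrays, and the 2 cell lines overlapped throughout.

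Over both treatments, ESR1 averaged 4.50 ± 0.12 in ERa cells and 4.54 ± 0.10 in Ctrl cells (SD, n = 6 each). The difference of -0.04 gave p = 0.481 in an exact two-sided permutation test over every split of the arrays. On the raw intensity scale the difference was 2.79 units with the opposite sign (exact permutation p = 0.541), from 108 ± 8.82 units in ERa cells and 105 ± 5.15 in Ctrl cells (SD, n = 6 each). The probe thus gives no check of the labels, for which the submitters cite a western blot for the receptor. The files do not give the probe's sequence, and whether it lies within the plasmid's transcript was not tested. In RNA from whole cultures, fewer cells with a transcript and less transcript per cell cannot be told apart.

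**Figure D1:**
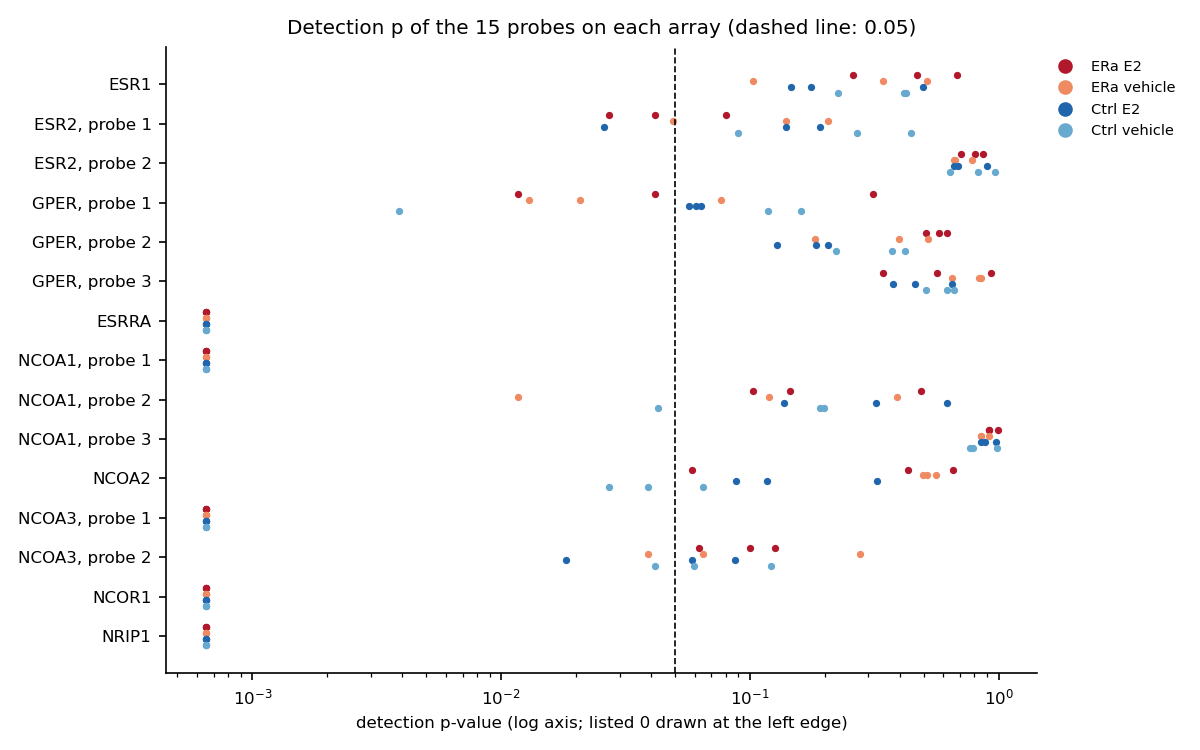
Detection p-value (log axis) of each of the 15 probes on each of the 12 arrays, coloured by group, with the 0.05 threshold dashed and values listed at 0 drawn at the left edge. The ESR1 probe lies right of the threshold on every array, while 1 probe each of ESRRA, NCOA1, NCOA3, NCOR1 and NRIP1 is at 0 on all 12.

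The receptor genes ESR2 and GPER lay at the edge of detection. The ESR2 probe used here was detected on 2 of 3 ERa E2 arrays, 1 of 3 ERa vehicle arrays, 1 of 3 Ctrl E2 arrays and 0 of 3 Ctrl vehicle arrays. A second ESR2 probe was detected on 0 of 12 arrays. ESR2 levels were 4.91, 4.90 and 4.79 in ERa E2 arrays and 4.59, 4.84 and 4.70 in ERa vehicle arrays, against 4.63, 4.68 and 4.97 in Ctrl E2 arrays and 4.74, 4.46 and 4.56 in Ctrl vehicle arrays. The groups overlapped in every comparison, and the highest array was a Ctrl E2 array. ERa E2 cells differed from Ctrl E2 cells by 0.10 (95% interval -0.17 to 0.37, limma adjusted p = 0.681) and from ERa vehicle cells by 0.16 (95% interval -0.11 to 0.42). No fold is given against Ctrl vehicle cells, where ESR2 was not above background.

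GPER was detected through 1 of its 3 probes, on 2 of 3 ERa E2 arrays, 2 of 3 ERa vehicle arrays, 0 of 3 Ctrl E2 arrays and 1 of 3 Ctrl vehicle arrays. Its levels were 5.05, 4.53 and 4.94 in ERa E2 arrays and 4.93, 4.78 and 5.14 in ERa vehicle arrays, against 4.84, 4.85 and 4.81 in Ctrl E2 arrays and 5.30, 4.72 and 4.64 in Ctrl vehicle arrays. A single Ctrl vehicle array was the highest of all, and the other 2 of its group were among the 3 lowest. The difference between ERa vehicle and Ctrl vehicle cells was 0.06 (95% interval -0.33 to 0.45, limma adjusted p = 0.871). The interval spans changes of either sign of about the size of the spread between arrays, so a change of that size was not detectable with 3 arrays per group.

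ESRRA encodes an orphan relative of the estrogen receptors that controls mitochondrial genes and binds no estrogen. Unlike the receptors above, it was detected on all 12 arrays. Its level was 6.78, 6.45 and 6.75 in ERa E2 arrays and 6.94, 6.58 and 6.67 in ERa vehicle arrays, against 6.50, 6.90 and 6.60 in Ctrl E2 arrays and 6.63, 6.81 and 6.76 in Ctrl vehicle arrays. The 4 group means lay between 6.66 and 6.73. The vehicle-treated lines differed by -0.00 (95% interval -0.31 to 0.30), which leaves a change in either direction of up to that size within the error.

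**Figure D2:**
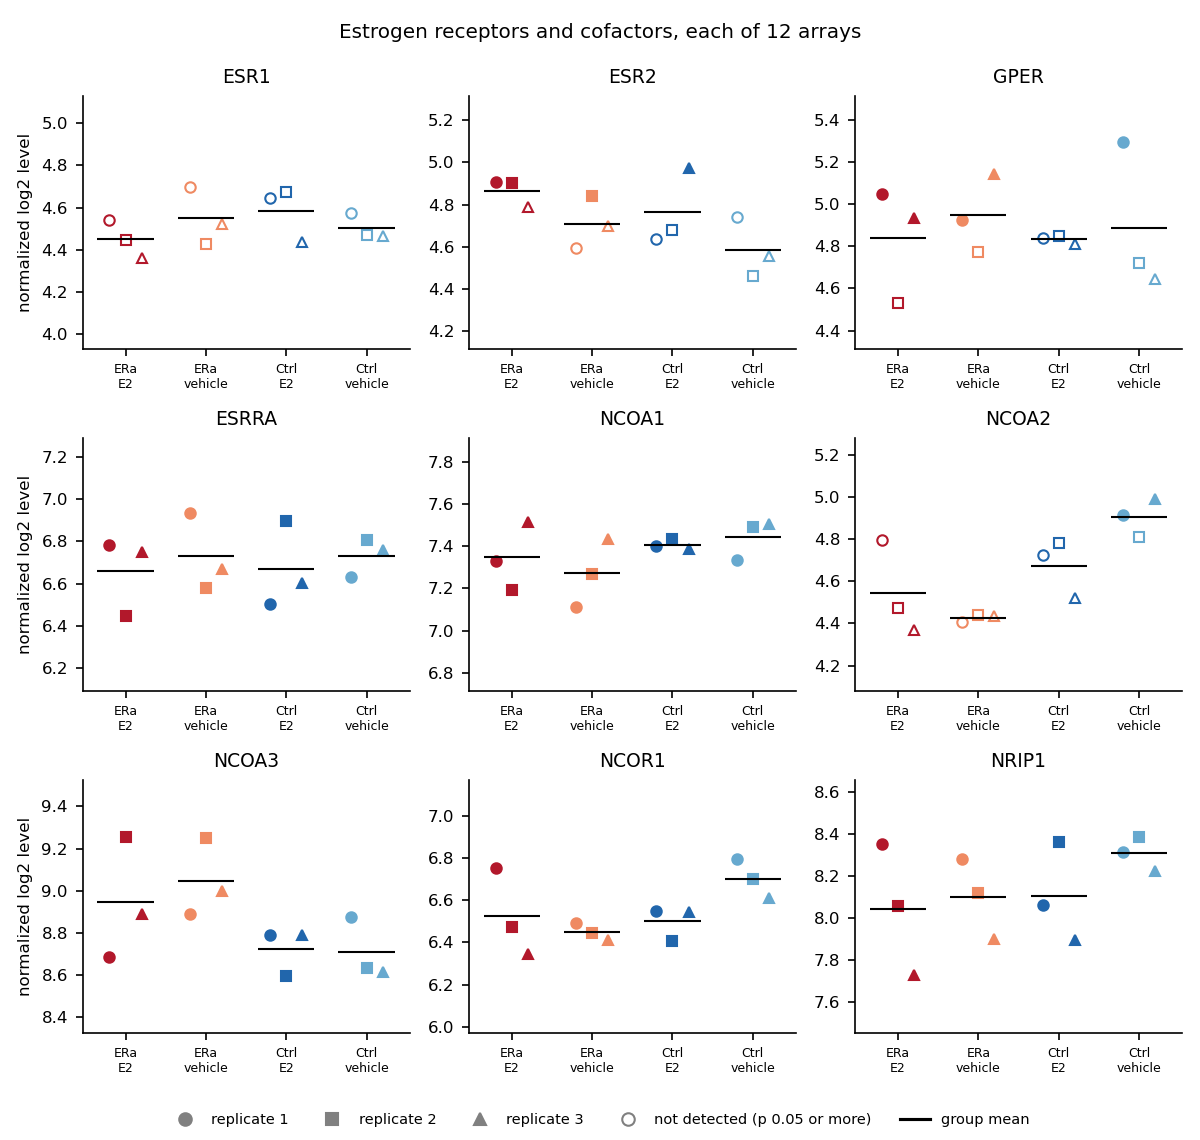
Normalized log2 level of the 9 members on each array (y axis, each panel spans the same 1.2 units), by group (x axis), with the shape giving the replicate number, open symbols arrays on which the probe was not detected, and bars the group means. All 12 ESR1 symbols are open, the NCOA3 symbol of replicate 2 is the highest in both ERa groups, and the NRIP1 symbol of replicate 1 is the highest and that of replicate 3 the lowest in both ERa groups.

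The p160 coactivators NCOA1 and NCOA3 were well above background, and NCOA2 was not. NCOA3, also called SRC-3 or AIB1, had levels of 8.69, 9.26 and 8.89 in ERa E2 arrays and 8.89, 9.25 and 8.997 in ERa vehicle arrays, against 8.79, 8.60 and 8.79 in Ctrl E2 arrays and 8.87, 8.63 and 8.62 in Ctrl vehicle arrays. All 3 ERa vehicle arrays lay above all 3 Ctrl vehicle arrays, the closest pair being 8.89 against 8.87. The difference was 0.34 ± 0.15 (SE, 1.26-fold, 95% interval 0.01 to 0.67) and was not called (limma adjusted p = 0.188, over all genes tested). Under E2 the lines overlapped and differed by 0.22 ± 0.15 (SE, adjusted p = 0.431).

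Replicate 2 gave the highest NCOA3 level of the ERa cells in both treatments, and its mean over treatments was 9.25, against 8.79 for replicate 1 and 8.94 for replicate 3. A second NCOA3 probe, detected on 3 of 12 arrays, differed in the opposite direction, by -0.05 between the vehicle groups and -0.13 between the E2 groups. Neither of these was called, with adjusted p = 0.848 and 0.612 in limma fitted to all probes.

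NCOA1, also called SRC-1, had levels of 7.33, 7.19 and 7.52 in ERa E2 arrays and 7.11, 7.27 and 7.44 in ERa vehicle arrays, against 7.40, 7.44 and 7.39 in Ctrl E2 arrays and 7.34, 7.49 and 7.50 in Ctrl vehicle arrays. Both pairs of groups overlapped, and the ERa arrays were spread over 0.40 log2 units against 0.17 for the Ctrl arrays. The difference was -0.17 between the vehicle groups (95% interval -0.43 to 0.08) and -0.06 between the E2 groups (95% interval -0.32 to 0.20). Of 2 further NCOA1 probes, 1 was detected on 2 of 12 arrays and the other on 0.

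NCOA2, also called SRC-2 or GRIP1, was detected on 2 of 12 arrays, both from Ctrl vehicle cells. Its level was 4.79, 4.47 and 4.37 in ERa E2 arrays and 4.41, 4.44 and 4.43 in ERa vehicle arrays, against 4.72, 4.78 and 4.52 in Ctrl E2 arrays and 4.92, 4.81 and 4.99 in Ctrl vehicle arrays. All 3 ERa vehicle arrays lay below all 3 Ctrl vehicle arrays, while the E2 groups overlapped.

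With no detection filter, NCOA2 was called lower in ERa vehicle than in Ctrl vehicle cells, by -0.48 ± 0.11 (SE, limma adjusted p = 0.0361). Because no ERa vehicle array detected it, the size of this difference was not measured. The Ctrl vehicle mean of 4.91 was 1.05-fold above 4.84, the mean level at the detection threshold on the ERa vehicle arrays. That Ctrl vehicle mean includes replicate 2, at 4.81, on which NCOA2 was itself not detected. The 1.05-fold carries no error estimate and is not a lower limit on the difference. Over both treatments NCOA2 averaged 4.49 ± 0.16 in ERa cells and 4.79 ± 0.16 in Ctrl cells (SD, n = 6 each, exact permutation p = 0.0108). On the raw intensity scale, which is not normalized between arrays, the difference of -4.55 units gave an exact permutation p of 0.284. With the authors' normalized log2 values the difference was -0.12 (exact permutation p = 0.0108). ESR1 and NCOA2 were the only 2 members tested in this way, and the test takes the 6 arrays of a line as separate samples although ERa arrays of the same replicate number resembled each other.

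The corepressor NCOR1 had levels of 6.76, 6.47 and 6.35 in ERa E2 arrays and 6.49, 6.44 and 6.41 in ERa vehicle arrays, against 6.55, 6.41 and 6.55 in Ctrl E2 arrays and 6.80, 6.70 and 6.61 in Ctrl vehicle arrays. All 3 ERa vehicle arrays and all 3 Ctrl E2 arrays lay below all 3 Ctrl vehicle arrays. The difference of ERa vehicle from Ctrl vehicle cells was -0.25 ± 0.12 (SE, 95% interval -0.51 to 0.00, limma adjusted p = 0.201). That of Ctrl E2 from Ctrl vehicle cells was -0.20 ± 0.12 (SE, adjusted p = 1.00). Both comparisons share the Ctrl vehicle arrays. The response to E2 in ERa cells minus that in Ctrl cells was 0.28 (95% interval -0.09 to 0.64), with a limma adjusted p of 1.00.

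NRIP1, a gene that estradiol induces in breast cancer cells, had levels of 8.35, 8.06 and 7.73 in ERa E2 arrays and 8.28, 8.12 and 7.90 in ERa vehicle arrays. The Ctrl levels were 8.06, 8.36 and 7.90 under E2 and 8.31, 8.38 and 8.23 under vehicle. In ERa cells the arrays of a replicate number lay close together in both treatments, and the E2 minus vehicle difference within a number was 0.07, -0.07 and -0.17. The response to E2 in ERa cells was -0.06 (95% interval -0.42 to 0.31, limma adjusted p = 1.00), so a rise above 0.31 lay outside the interval. With the replicate number as a block, the response in ERa cells was again -0.06, with an SE of 0.10 rather than 0.17 (limma adjusted p = 0.938). ERa vehicle cells differed from Ctrl vehicle cells by -0.21 (95% interval -0.57 to 0.16, adjusted p = 0.474).

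Across the 7 tested members, limma called 0 in each of the 5 comparisons, whereas the share of all genes called differed widely. ERa vehicle over Ctrl vehicle called 8.54% of all genes (3.74% higher and 4.79% lower), and members not called there had adjusted p between 0.188 and 0.994. Before adjustment 1 member (NCOA3) had p under 0.05, against 25.4% of all genes, and the arrays of 2 members (NCOA3 and NCOR1) did not overlap, against 29.9% of all genes. ERa E2 over Ctrl E2 called 7.6% of all genes (3.24% higher and 4.36% lower), with 0 members at an unadjusted p under 0.05 (23.1% of all genes) and 0 without overlap (27.3%).

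The comparisons by treatment called few genes of any kind. ERa E2 over ERa vehicle called 0.0721% of all genes, which is 11 genes, all higher. With the replicate number as a block this count was 35, or 14 when the ERa arrays were fitted alone, with 0 members among them. Of all genes, 3.46% had an unadjusted p under 0.05 there and 5.44% had arrays that did not overlap, against 0 members for both. Ctrl E2 over Ctrl vehicle called 0% of all genes, with 2.3% at an unadjusted p under 0.05, and 1 member (NCOR1) had arrays that did not overlap, against 11.1% of all genes. The difference between the responses called 0.0328% of all genes, 5 in number, or 9 with the block, and 2.87% had an unadjusted p under 0.05. In these 3 comparisons 0 members had an unadjusted p under 0.05. The median member difference lay between -0.06 and 0.00 over the 5 comparisons, beside medians of all genes between -0.01 and -0.00.

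**Figure D3:**
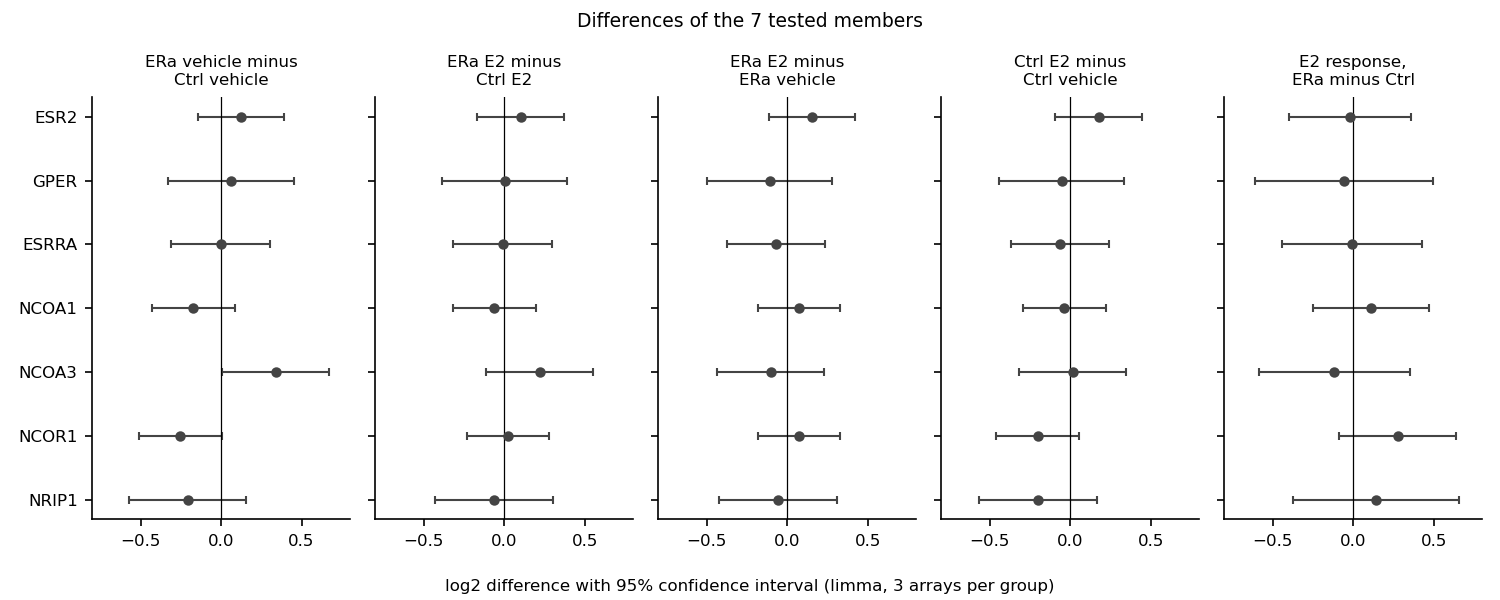
Log2 difference (x axis) of the 7 tested members with its 95% interval from limma, 1 panel per comparison, 3 arrays per group. Of the 35 intervals, that of NCOA3 in ERa vehicle minus Ctrl vehicle cells is the 1 that excludes 0, at 0.01 to 0.67, and it did not pass adjustment.

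Other genes of the pathway were taken from 3 lists of other nuclear receptors, coactivators and corepressors. Among the other nuclear receptors, 21 of 41 were tested. ERa vehicle over Ctrl vehicle cells called 0 higher and 3 lower (14.3%, beside 8.54% of all genes), of which NR1H2 and RXRA are described here. The median of the 21 was -0.11, beside -0.01 for all genes. NR1H2, the oxysterol receptor LXR-beta, had levels of 7.59, 7.61 and 7.75 in ERa vehicle arrays, against 8.34, 8.50 and 8.50 in Ctrl vehicle arrays. It was lower by -0.79 ± 0.12 (SE, 1.73-fold, limma adjusted p = 0.00136) and, under E2, by -0.71 ± 0.12 (SE, adjusted p = 0.00268). No ERa array of NR1H2 reached the lowest Ctrl array in either treatment.

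RXRA, the retinoid X receptor that pairs with NR1H2 and many other receptors on DNA, had levels of 8.19, 8.18 and 8.01 in ERa vehicle arrays, against 8.78, 8.98 and 8.69 in Ctrl vehicle arrays. It was lower by -0.69 ± 0.11 (SE, 1.61-fold, limma adjusted p = 0.00207). Under E2 its difference was -0.36 ± 0.11 (SE, adjusted p = 0.0594). The calls of NR1H2 and RXRA under vehicle were lost under 0 of 23 alternative settings. The progesterone receptor gene PGR, a known estrogen target in breast and uterus, was detected on 0 of 12 arrays.

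Of 30 coactivators, 25 were tested and limma called 0 in the comparisons of ERa with Ctrl cells, with medians of -0.14 under vehicle and -0.05 under E2. The acetyltransferase gene CREBBP differed by -0.02 under vehicle and 0.18 under E2, and its partner EP300 by 0.12 and 0.38, with adjusted p between 0.413 and 0.948. Of 29 corepressors, 26 were tested, with medians of -0.02 under vehicle and -0.01 under E2. ERa E2 over Ctrl E2 called 2 corepressors higher (7.69%, beside 7.6% of all genes), and the vehicle comparison called 0.

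SIN3B, a scaffold for histone deacetylases, had levels of 7.75, 7.53 and 7.23 in ERa E2 arrays, against 6.63, 6.64 and 6.59 in Ctrl E2 arrays. It was higher by 0.88 ± 0.18 (SE, 1.85-fold, limma adjusted p = 0.0110). ERa vehicle arrays had 7.30, 6.66 and 6.53, so each ERa replicate number was higher under E2 than under vehicle. In limma without a replicate block, neither this response (0.67 ± 0.18, SE, adjusted p = 0.687) nor its difference from that of Ctrl cells (0.77 ± 0.26, SE, adjusted p = 1.00) was called. That fit ignores the likeness of ERa arrays by replicate number, and a blocked value for SIN3B is not reported here. Without ERa replicate 2 the adjusted p for SIN3B between the E2 groups was 0.0571.

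GPS2, a subunit of the NCOR1 complex, had levels of 9.22, 9.33 and 9.24 in ERa E2 arrays, against 8.88, 8.97 and 8.80 in Ctrl E2 arrays. It was higher by 0.38 ± 0.10 (SE, 1.30-fold, limma adjusted p = 0.0311), a call lost under 8 of 23 alternatives. HDAC3 differed by 0.25 between the E2 groups and by 0.29 between the vehicle groups, with limma adjusted p of 0.196 and 0.122. Over the 3 lists together, 4.17% of the 72 genes tested were called in each comparison of ERa with Ctrl cells, beside the 8.54% and 7.6% of all genes given above, and 0% in the other 3 comparisons.

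**Figure D4:**
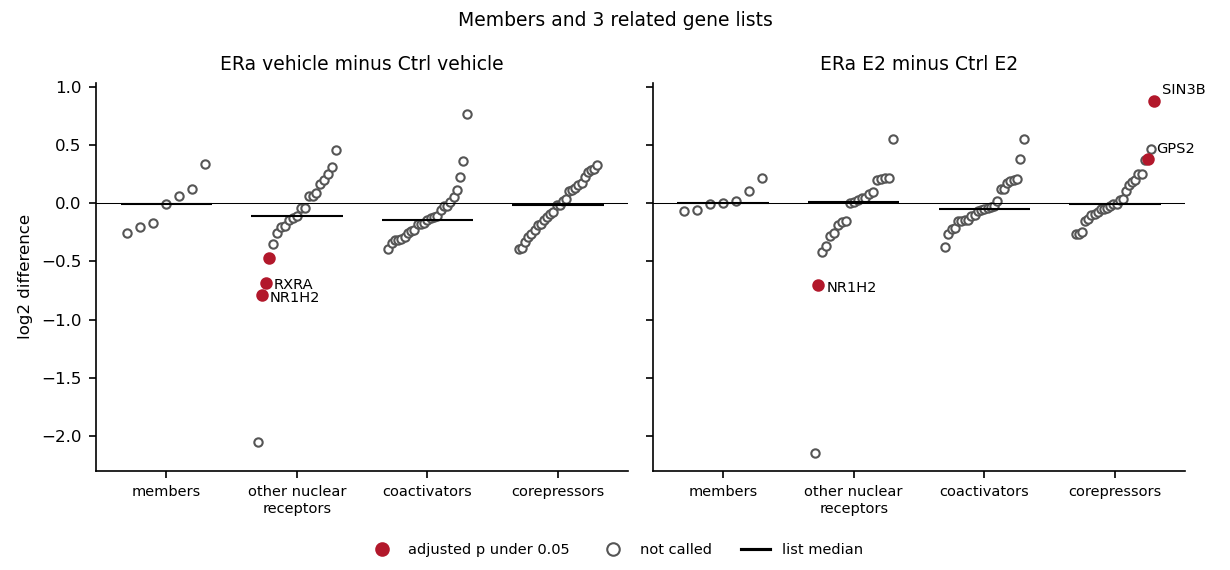
Log2 difference (y axis) of each tested gene among the members and the 3 lists, for the comparison of ERa with Ctrl cells under vehicle (left) and under E2 (right), with filled points called by limma and bars the medians. The lowest open point in both panels is RARB, at -2.06 and -2.15, whose ERa arrays were widely spread (SD 1.76 under vehicle and 2.00 under E2, n = 3 each) and which was not called.

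**Figure D5:**
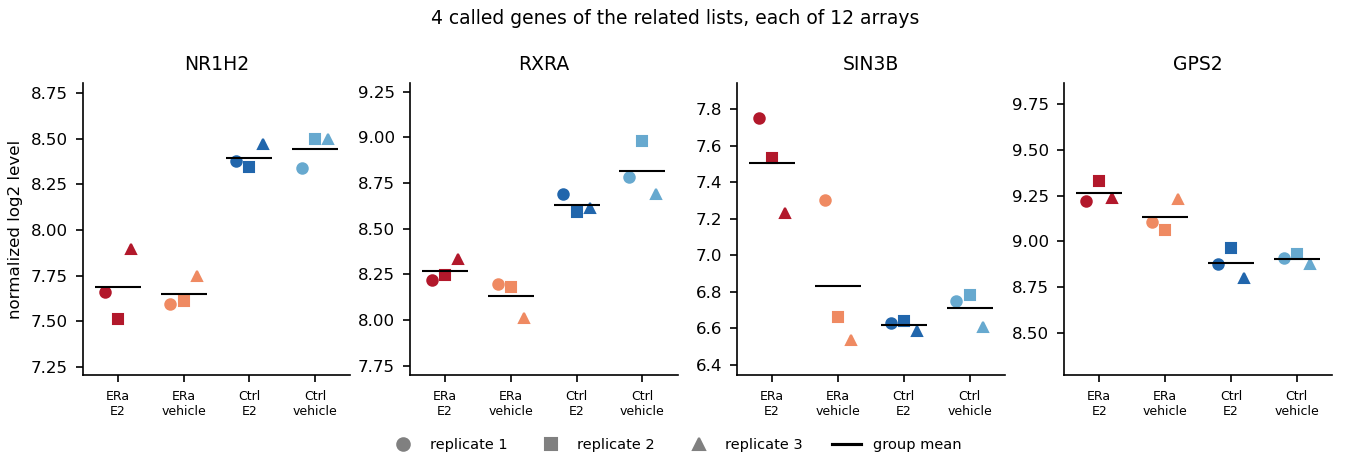
Normalized log2 level (y axis, each panel spans the same 1.6 units) of 4 called genes on each of the 12 arrays by group (x axis), with the shape giving the replicate number and bars the group means. NR1H2 is lower in both ERa groups, while SIN3B is highest in the 3 ERa E2 arrays apart from 1 ERa vehicle array at 7.30.

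The cell lines also differed in markers of cell type, and the part of this in the list genes above was not tested. Of 11 endothelial markers, 8 were detected on all 12 arrays and CLDN5 on none. Of the 10 tested, 1 was called between the vehicle groups (10%, beside 8.54% of all genes) and 0 between the E2 groups (beside 7.6%). Their median difference was -0.41 under vehicle and -0.25 under E2. The called marker was ENG, an endothelial receptor of the TGF-beta family. ENG was lower in ERa than in Ctrl cells by -0.75 under vehicle (limma adjusted p = 0.00442) and by -0.27 under E2 (adjusted p = 0.241). The summed linear level of the endothelial markers ranged from 14511 to 19815 in ERa E2 arrays and 14694 to 19408 in ERa vehicle arrays, against 17763 to 19458 in Ctrl E2 arrays and 18690.4 to 21423 in Ctrl vehicle arrays. Of 6 epithelial markers, listed for the carcinoma parent of this hybrid line, 4 were detected on all arrays and CDH1 on none. Their summed linear level was 2985 to 5575 in ERa E2 arrays and 2949 to 5278 in ERa vehicle arrays, against 2604 to 2918 in Ctrl E2 arrays and 2456 to 2684 in Ctrl vehicle arrays. Of the 5 epithelial markers tested, 2 were called between the vehicle groups (40%, beside 8.54% of all genes), both higher. Between the E2 groups 3 were called higher (60%, beside 7.6%). The keratin genes KRT8 and KRT18 were both higher by 0.87 in ERa vehicle than in Ctrl vehicle cells (limma adjusted p = 0.00793 and 0.00330). KRT7, the highest of the list, and EPCAM were not called. Their vehicle means were 11.18 and 5.51 in ERa cells, against 10.52 and 5.46 in Ctrl cells. KRT19 was called higher in ERa E2 than in Ctrl E2 cells, where no array detected it, but was not called between the vehicle groups. Its ERa E2 mean was 2.46-fold above 4.87, the mean level at the detection threshold on the Ctrl E2 arrays. That fold carries no error estimate and is not a lower limit on the difference. The vehicle means of KRT19 were 4.58 in ERa and 4.42 in Ctrl cells, with detection on 1 of 3 and 0 of 3 arrays. In ERa replicates 1, 2 and 3 KRT19 was at 4.88, 4.50 and 4.37 under vehicle and 7.03, 5.87 and 5.60 under E2. KRT19 thus differed by treatment within ERa cells rather than between the vehicle-treated lines. Of the epithelial markers, 0 were called in ERa E2 over ERa vehicle without a replicate block. Of 4 mesenchymal markers, 2 were tested, and PDGFRB was detected on no array. TAGLN, a smooth muscle gene, was lower by -0.58 in ERa vehicle than in Ctrl vehicle cells (limma adjusted p = 0.0193), while the smooth muscle actin gene ACTA2 differed by 0.21 and was not called (adjusted p = 0.244). The summed level of this list was 3031 to 3770.2 in ERa E2 arrays and 3272 to 3681 in ERa vehicle arrays, against 2988 to 3052 in Ctrl E2 arrays and 2787 to 3157 in Ctrl vehicle arrays. Nearly all of this sum was ACTA2, whose log2 group means were 11.50 to 11.72, against 5.70 to 6.30 for TAGLN. Of 3 leukocyte markers, 2 were tested, and PTPRC was detected on no array. LCP1 was called higher in ERa vehicle than in Ctrl vehicle cells (limma adjusted p = 0.00574), where no array detected it. Its ERa vehicle mean was 1.44-fold above 4.86, the mean level at the detection threshold on the Ctrl vehicle arrays. This fold too has no error estimate and is not a lower limit. CD68, a macrophage gene, differed by -0.28 under vehicle and -0.47 under E2 and was not called (limma adjusted p = 0.247 and 0.0732). The summed linear level of the leukocyte markers was nearly all CD68, whose log2 group means were 9.73 to 10.20, against 4.56 to 5.39 for LCP1. This sum was 764 to 1114 in ERa E2 arrays and 901 to 1116 in ERa vehicle arrays, against 1129.8 to 1350.2 in Ctrl E2 arrays and 1178 to 1184 in Ctrl vehicle arrays. Of all genes, the median SD between arrays was 0.197 in ERa E2 and 0.195 in ERa vehicle cells, against 0.111 in Ctrl E2 and 0.117 in Ctrl vehicle cells.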

How the data were processed

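The deposited table held, per probe and array, a bead intensity and a detection p-value; per the file headers it was not normalized. A second deposited table held normalized intensity, for which the submitters' processing notes name lumi (version not given in the sources used here). It served as an alternative. Of 47322 probes, 1 lacked values on some arrays. The neqc function of limma 3.58.1 in R 4.3.3 used the detection p-values for background correction, normalized by quantiles and took log2 after adding 16. Symbols were updated through a RefSeq gene table: 27035 probes had a current symbol, 4675 an older one, 12341 kept an unmatched symbol and 3270 had none. Of 21476 probes detected (p under 0.05) on at least 3 arrays, 19953 were named, and each gene was represented by the probe with the highest mean. The limma model had a mean for each group over the 12 arrays, with 8 residual degrees of freedom and 4.62 from the prior. Its two-sided moderated p was adjusted over 15249 genes (Benjamini-Hochberg), and "called" means an adjusted p under 0.05. Standard errors are those of this fit. ESR1 and NCOA2, which it did not include, were compared by exact permutation.

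The fit was tested on simulated data with independent noise and, for each gene, the same spread in all groups. That setting does not cover the wider spread of the ERa arrays or their likeness by replicate number. No column belonged to another series, and no 2 arrays held identical values. Arrays of the same replicate number deviated together in ERa cells (r = 0.76, 0.39 and 0.67 across genes, which are not independent) but not in Ctrl cells (0.08, 0.03 and 0.11). The numbers therefore pair ERa arrays only, from the data and not from the labels. The named genes were all members, the called genes of 3 lists (up to 3 per list and comparison), and CREBBP, EP300, HDAC3 and PGR, and 2 further genes under this rule are not reported here. RARB was named after its values were seen. The members and lists were chosen with earlier results of these data known. The alternatives were the authors' normalized values, no background correction, an offset of 50, no detection filter, other probe choices, only the groups compared, replicate blocks and leaving out arrays. Precision is limited by the number of arrays and by background. Figures used matplotlib 3.10.9 (Python 3.11.15).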

Additional observations from a re-analysis of the deposited data

How the results depend on the processing

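Of 800 results of the 7 tested members under alternative settings, 0 were called by limma. NCOA2, which is tested only without the detection filter, was then called in ERa vehicle over Ctrl vehicle cells (1 member called). The sign turned in 70 of the 800, all uncalled in both settings. ERa E2 over ERa vehicle called 17 genes with an offset of 50, 1 with only its own groups, and 35 with the replicate block within each line. The replicate block on the ERa arrays alone, added after seeing the data, gave 14. The difference between the responses called 9 genes with the block within each line. Under the replicate block, the pairing changed no call of a member. ERa E2 over Ctrl E2 called 748 genes with only its own groups. Leaving out an array or a replicate number gave 479 to 2375 genes for ERa vehicle over Ctrl vehicle, 578 to 2287 for ERa E2 over Ctrl E2, 5 to 14 for ERa E2 over ERa vehicle and 2 to 7 for the difference between the responses. The lowest count came without Ctrl vehicle replicate 2 for the vehicle groups, without Ctrl E2 replicate 1 for the E2 groups and without ERa replicate 2 for ERa E2 over ERa vehicle, while 7 settings gave the lowest count for the difference between the responses. The highest count came without ERa replicate 3 for both comparisons of the lines, and without ERa E2 replicate 3 for the other 2 comparisons. The cause of these changes was not tested. A slide block was not run because the files used here name no slide. The background limits ESR1, ESR2, GPER and NCOA2.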
